A study of Mus musculus with 103 samples.

Results

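The comparison described here was of liver RNA from old and young mice sampled in the light phase. Its members were the arrays at zeitgeber time (ZT, hours after lights on) 0, 4 and 8, 51 in all, and the series' other 52 arrays were from the dark phase. The difference of old minus young was estimated over both diets with diet and ZT as covariates. All mice were C57BL6/J, kept under 12 h of light and 12 h of darkness. For 25 weeks they were fed normally or under calorie restriction. The 22 old arrays were 11 on the normal diet, labelled 84 to 91 weeks of age (median 88, 5 female and 6 male), and 11 on the restricted diet, labelled 83 to 97 weeks (median 88, 6 female and 5 male). The 29 young arrays were 13 on the normal diet, labelled 23 to 57 weeks (median 52, 7 female and 6 male), and 16 on the restricted diet, labelled 47 to 56 weeks (median 51, 10 female and 6 male). The young animals were thus mostly about a year old, and 1 young array on the normal diet at ZT4 carried the label of 23 weeks. That age is shorter than the 25 weeks of diet, so both cannot hold for this array if the age is that at sampling. Among the dark-phase arrays, 1 labelled young (restricted diet, ZT16, replicate 5) carried an age of 88 weeks, that of the old mice. Each combination of age, diet and ZT held 3 to 6 arrays. Most arrays of a group carried different labelled ages or sexes. Some shared both, such as replicates 2 and 3 of old normal diet ZT8 (female, 88 weeks). No label states that each array of a group was a different mouse, so every p-value refers to the spread between samples. For arrays with the same labels that spread may be technical.

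The liver runs much of its metabolism on a daily schedule. A clock of transcription factors in the hepatocyte, together with feeding, sets when genes of fat burning, bile acid synthesis and detoxification are transcribed, and nocturnal mice rest and fast through most of the light phase. In fasting, fatty acids released from fat activate the nuclear receptor PPAR-alpha, which drives the enzymes that oxidise them in mitochondria and peroxisomes. Ageing liver is known for a slow rise of immune cells among the hepatocytes.

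Values are log2 signals from microarrays, so a difference of 1 is a doubling, and signals of different genes are not comparable because each gene has its own probes. Array medians lay between 5.06 and 5.22, and correlations between pairs of light-phase arrays between 0.9490 and 0.9948. Hepatocyte genes such as Alb, Ttr and Apoa1 were among the brightest on the arrays. Of the 11 hepatocyte markers tested 1 was higher in old liver and 0 lower, with a median difference of 0.0146. Over all genes tested 3.03% were higher and 3.69% lower. One array stood apart, old restricted diet ZT4 replicate 2, labelled 97 weeks. It correlated at 0.982 with the rest of its group, and the median over the light-phase arrays was 0.993. Replicates 1 and 3 of the same group each correlated at 0.987. The next lowest array, young restricted diet ZT0 replicate 4, correlated at 0.985 and did not pass the limit set for standing apart. Where leaving out old restricted diet ZT4 replicate 2 changed the count of a gene list described below, the count without it is given too. Changed calls of single genes are given for many of them but not all. The sex labels were not borne out by sex-linked transcripts. Xist, transcribed from the inactive X of females, ranged from 2.97 to 4.92 (median 4.10) in the 28 arrays labelled female and from 3.59 to 4.78 (median 4.17) in the 23 labelled male. The Y-linked Eif2s3y ranged from 8.50 to 10.07 (median 9.23) in the former and from 8.67 to 10.01 (median 9.27) in the latter. The sources used here do not say whether the deposited values had been adjusted for sex, and the labelled sex was left out of the comparison.

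Of 11787 genes tested, 792 differed between old and young liver in the light phase at an adjusted p under 0.05 (6.72%, limma with Benjamini-Hochberg adjustment). Of these, 357 were higher in old liver (3.03%) and 435 lower (3.69%). The share that was higher, 45.1%, fell to 29.6% when each array was centred on its median. The differences were small. The median was 0.234 for the genes that rose and -0.194 for those that fell, beside -0.00716 over all genes tested, and 20 genes differed by more than 1.5-fold. No gene separated all old from all young arrays of a diet. Some genes and lists are described below as not overlapping at a single ZT. The share of all genes that did so in groups that small is not given here. Of the 792 genes, 465 had the same sign in all 6 combinations of diet and ZT and 292 in 5 of them. Choosing genes by their difference over these same arrays favours such agreement.

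Noct encodes nocturnin, a rhythmic phosphatase that acts on NADP cofactors and is known for its strong daily rhythm in liver. Its lowest, median and highest signals were 7.58, 9.21 and 10.34 in the 13 young arrays on the normal diet and 8.43, 10.28 and 10.72 in the 11 old ones. On the restricted diet they were 6.60, 8.56 and 10.70 in the 16 young arrays and 8.90, 9.65 and 10.37 in the 11 old ones. The ranges overlapped over the whole light phase, but part of that width was the gene's own daily course. At ZT0 on the restricted diet the 4 old arrays read 8.90, 9.26, 9.32 and 9.60 and the 5 young arrays 6.60, 6.65, 6.67, 7.26 and 7.33, with no overlap. The share of all genes without overlap there is not given here. At ZT8 on the same diet the old arrays read 9.95, 10.30, 10.37 and 10.37 and the young 9.67, 9.69, 9.92, 9.96 and 10.70, so that they intermingled. Noct was 2.29-fold higher in old liver (log2 difference 1.19 ± 0.16 SE, adjusted p = 2.66e-06), with the same sign in 6 of 6 combinations. By time the difference was 1.86 ± 0.24 at ZT0, 1.19 ± 0.24 at ZT4 and 0.49 ± 0.25 at ZT8, although the test of age by time did not pass after adjustment (adjusted p = 0.0999). In the dark phase Noct was also higher (0.37 ± 0.072, adjusted p = 0.00658), and the test of the light against the dark difference gave an adjusted p of 0.0518. Noct was the gene called in the list of 18 clock and clock output genes (5.56%, beside 6.72% of all genes). The list's median difference was -0.026. Without the array that stood apart 2 of the list were called higher, Noct and Per1, which is described below. The core activator Arntl differed by 0.19 (adjusted p = 0.147) and Npas2, a paralogue of its partner, by 0.41 (adjusted p = 0.16).

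**Figure D1:**
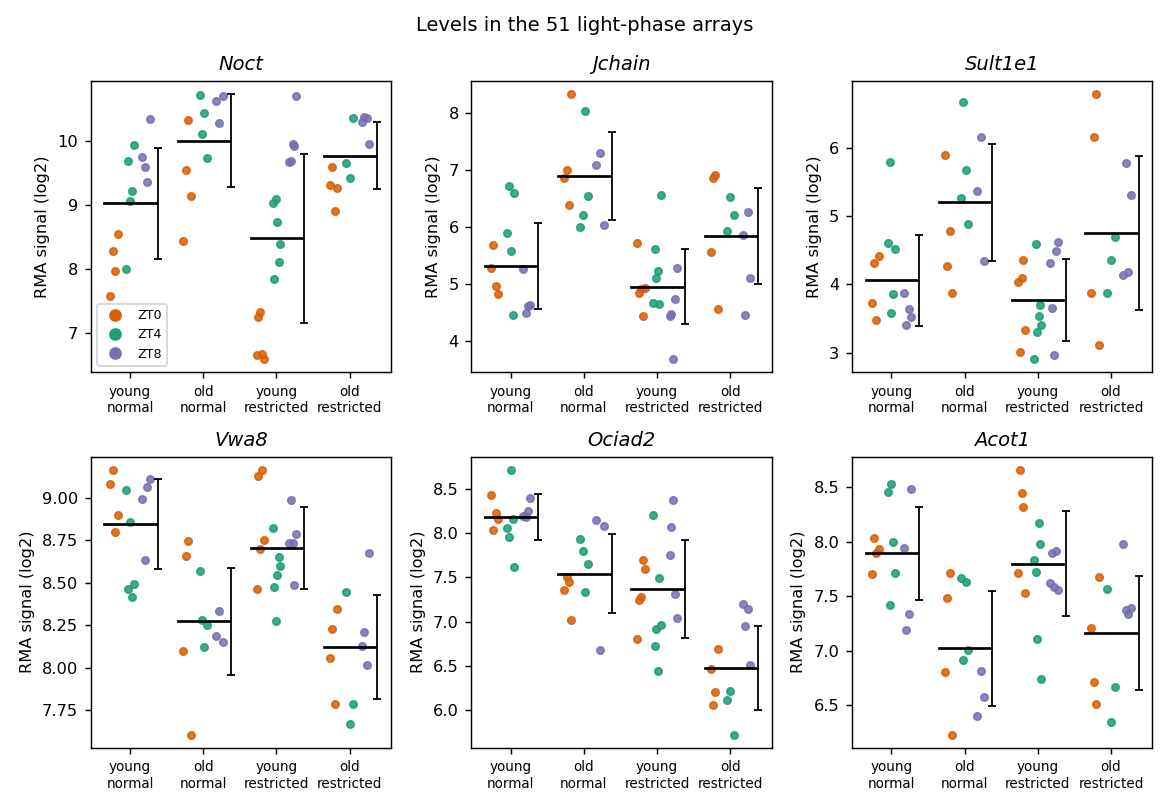
Log2 signal of 6 genes in each light-phase array, by age and diet, with points coloured by ZT, the group mean as a black line and the SD as a bar. Noct, Jchain and Sult1e1 sat higher in old arrays and Vwa8, Ociad2 and Acot1 lower, with overlapping ranges on both diets.

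The largest difference of all the named genes was that of Hes7, known as a transcriptional repressor of the segmentation clock in the embryo, and it came with its neighbours. Borcs6, Vamp2, Per1 and Hes7 followed one another among the tested genes of chromosome 11, within 64.3 kb. Borcs6 encodes a subunit of the complex that positions lysosomes, Vamp2 a vesicle fusion protein and Per1 a repressor of the circadian clock. The 250 bases before the RefSeq start sites of these genes, on the plus strand of GRCm38.p6, are shown because the genes moved together, with a match to the clock factors' E-box (CACGTG) in capitals. They are chr11:69059525-69059774 for Borcs6, chr11:69098699-69098948 for the upstream start of Per1 and chr11:69120203-69120452 for Hes7. Vamp2 had no entry in the table used.
Borcs6: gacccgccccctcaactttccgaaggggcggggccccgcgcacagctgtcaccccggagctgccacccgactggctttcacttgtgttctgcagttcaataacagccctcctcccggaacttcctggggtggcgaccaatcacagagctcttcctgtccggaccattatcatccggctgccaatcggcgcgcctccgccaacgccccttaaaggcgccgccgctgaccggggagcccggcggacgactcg
Per1, upstream start site: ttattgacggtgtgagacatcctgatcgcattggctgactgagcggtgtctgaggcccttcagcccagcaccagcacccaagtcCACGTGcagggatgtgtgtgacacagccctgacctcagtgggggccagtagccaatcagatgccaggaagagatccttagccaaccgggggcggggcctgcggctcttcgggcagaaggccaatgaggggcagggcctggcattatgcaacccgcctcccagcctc
Hes7: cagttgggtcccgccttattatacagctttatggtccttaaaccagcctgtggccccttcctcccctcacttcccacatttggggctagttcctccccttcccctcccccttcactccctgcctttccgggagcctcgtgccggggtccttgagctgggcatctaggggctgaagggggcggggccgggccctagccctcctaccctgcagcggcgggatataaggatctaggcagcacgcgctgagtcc
The E-box search, on both strands (the motif is its own reverse complement), found 1 match, 166 bases before the upstream start of Per1, and none in the Borcs6 and Hes7 windows, in the window of a second Per1 start or in that of Noct. The cyclic AMP response element TGACGTCA was found in none of these windows. Over all 32851 windows of this length, 6.02% held the E-box and 1.55% the cyclic AMP response element. These matches are descriptions of the letters and not of binding.

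Hes7 ranged from 2.68 to 7.80 (median 4.11) in young and from 4.64 to 7.54 (median 6.87) in old arrays on the normal diet. On the restricted diet it ranged from 3.10 to 7.93 (median 5.67) in young and from 5.02 to 8.61 (median 7.38) in old arrays. The young arrays thus spanned nearly the whole range and the old ones its upper part. The young median on the normal diet, 4.11, lay near 4.131, the log2 mean under which genes were left out as low. At ZT4 on the normal diet the 5 young arrays read 3.11, 3.64, 6.26, 6.50 and 7.80, while the 4 old arrays read 6.62, 7.01, 7.14 and 7.34. Hes7 was 2.64-fold higher in old liver (1.40 ± 0.30, limma adjusted p = 0.0029). Vamp2 was 1.64-fold higher (0.72 ± 0.14, adjusted p = 0.000964) and Borcs6 1.48-fold higher (0.56 ± 0.11, adjusted p = 0.000813). Per1, in between, differed by 0.29 ± 0.095 and did not pass (adjusted p = 0.0554; 0.0425 without the array that stood apart, and below 0.05 in 9 of the 51 fits that each left out 1 array). The flanking genes Pfas, Ctc1, Aloxe3 and Alox8 differed by -0.02, -0.04, 0.02 and 0.02 and were not called. In the dark phase Hes7 differed by 0.23 (adjusted p = 0.602), Vamp2 by 0.13 (adjusted p = 0.545) and Borcs6 by 0.13 (adjusted p = 0.486). The test of light against dark passed for none of the 3, with adjusted p of 0.275, 0.248 and 0.267.

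Within groups of one age, diet and ZT the same genes rose and fell together over the 51 light-phase arrays. Hes7 and Vamp2 correlated at Pearson's r = 0.951 and Spearman's rho = 0.917 over deviations from the group means. The permutation p within groups was 1e-05, the smallest that 100000 permutations can give, and 2e-05 after adjustment over the 9 gene pairs computed, which included pairs of Acot genes. Without the 2 arrays farthest from the median of Hes7 the r was 0.938. Hes7 and Borcs6 correlated at r = 0.918 and rho = 0.804 (permutation p = 1e-05, r = 0.898 without the 2 farthest arrays). Hes7 and Per1 correlated at r = 0.704 and rho = 0.664 (permutation p = 3e-05, adjusted 4e-05, r = 0.669 without the 2 farthest arrays). Among 180 neighbours of 30 genes with the largest differences, the median size of r was 0.144. The pairs with an r over 0.6 were 7, the 6 pairs of these 4 genes and the pair of Acot1 and Acot2. These are deviations from group means, so the age difference itself does not enter them.

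**Figure D2:**
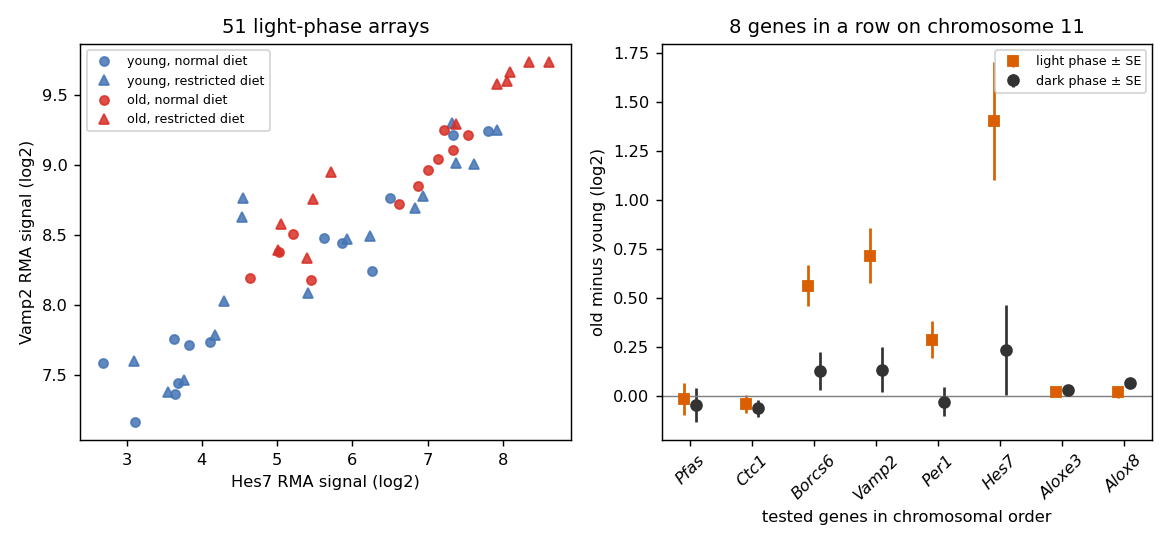
Left, log2 signal of Hes7 against Vamp2 in the 51 light-phase arrays. Right, old minus young difference with its SE for 8 consecutive tested genes of chromosome 11 in the light and the dark phase: Borcs6, Vamp2 and Hes7 stood above 0 in the light, and their flanking genes lay near 0.

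Genes of PPAR-alpha and fatty acid oxidation were lower in old liver. Of 23 members tested, 13 fell and 0 rose, where 3.69% of all genes fell. The median difference of the list was -0.222, and 22 of 23 members were negative. The receptor's own gene, Ppara, ranged from 9.22 to 10.15 (median 9.63) in young and from 8.88 to 9.55 (median 9.36) in old arrays on the normal diet, and from 9.31 to 10.29 (median 9.60) against 8.50 to 9.89 (median 9.44) on the restricted diet. At ZT0 the ages did not overlap on either diet, though the share of all genes without overlap there is not given here. The old arrays there read 8.88, 9.01, 9.08 and 9.36 and the young 9.49, 9.79, 9.79 and 9.82 on the normal diet. On the restricted diet the old read 8.50, 8.76, 8.99 and 9.03 and the young 9.31, 9.41, 9.61, 9.87 and 10.29. Ppara was 1.27-fold lower over the light phase (-0.35 ± 0.07, adjusted p = 0.00153). Its difference was -0.75 ± 0.099 at ZT0, -0.15 ± 0.098 at ZT4 and -0.12 ± 0.10 at ZT8, and it differed by time (adjusted p = 0.0328, limma).

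The enzymes that fell covered several steps. Acyl-CoA thioesterases release free fatty acids from coenzyme A. Acot1, of the cytosol, ranged from 7.19 to 8.53 (median 7.93) in young and from 6.23 to 7.72 (median 6.92) in old arrays on the normal diet. On the restricted diet it ranged from 6.74 to 8.66 (median 7.78) and from 6.35 to 7.98 (median 7.34). Acot1 was 1.69-fold lower (-0.76 ± 0.13, limma adjusted p = 0.000411), and its paralogues Acot2 and Acot3 differed by -0.58 ± 0.11 (adjusted p = 0.000842) and -0.74 ± 0.23 (adjusted p = 0.0365). The 3 genes are close paralogues that lie side by side, and their separate values are uncertain because whether the probe sets read more than one of them was not tested. Over deviations from group means Acot1 and Acot2 correlated at r = 0.876 and rho = 0.885 (permutation p = 1e-05, adjusted 2e-05, r = 0.857 without the 2 farthest arrays). Acot3 correlated at r = 0.224 and rho = 0.195 with Acot1 (permutation p = 0.1, adjusted 0.1, r = 0.228) and at r = 0.277 and rho = 0.234 with Acot2 (permutation p = 0.08, adjusted 0.09, r = 0.271). The call of Acot3 was lost without any of 9 single arrays (adjusted p up to 0.0682), among them the array that stood apart. The carnitine steps fell by 0.30 for Cpt2 (SE 0.069, adjusted p = 0.00569) and 0.22 for the carrier Slc25a20 (SE 0.045, adjusted p = 0.00163), whereas Cpt1a, the regulated entry step, differed by -0.10 and was not called. Of the peroxisomal enzymes, the thiolase Acaa1a differed by -0.45 ± 0.091 (adjusted p = 0.00163), the bifunctional enzyme Ehhadh by -0.29 ± 0.086 (adjusted p = 0.0323) and Hsd17b4 by -0.22 ± 0.047 (adjusted p = 0.00269). The fatty acid hydroxylase Cyp4a10 fell by 0.30 ± 0.064 (adjusted p = 0.00283), the lipid droplet coat Plin2 by 0.29 ± 0.065 (adjusted p = 0.0037) and the pantetheinase Vnn1 by 0.46 ± 0.14 (adjusted p = 0.0325, up to 0.0577 without single arrays, old normal diet ZT0 replicate 4 or old restricted diet ZT0 replicate 3). The targets Angptl4, Pdk4 and Acadm differed by -0.30, -0.16 and -0.11 without passing. Angptl4, an inhibitor of lipoprotein lipase, was uneven over the day, with -1.04 ± 0.21 at ZT0, 0.17 ± 0.21 at ZT4 and 0.00 ± 0.22 at ZT8, and its test of age by time gave an adjusted p of 0.0771.

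The median of the arrays' means over the 23 genes was lower in old arrays at each time over both diets, with partial overlap. At ZT0 the 8 old arrays ranged from 8.73 to 9.28 (median 8.99) and the 9 young from 9.20 to 9.55 (median 9.34) for PPAR-alpha targets and fatty acid oxidation. At ZT4 the 7 old ranged from 8.74 to 9.13 (median 9.02) and the 11 young from 8.94 to 9.55 (median 9.27). At ZT8 the 7 old ranged from 8.89 to 9.30 (median 9.09) and the 9 young from 9.12 to 9.55 (median 9.24). At ZT8 the 4 old and the 5 young arrays of the restricted diet had the same median, 9.20, and on the normal diet the medians were 8.96 in 3 old and 9.39 in 4 young. The list's median difference was -0.227 on the normal and -0.215 on the restricted diet. In the dark phase it was -0.125 and 0 of the 23 genes were called by limma, with 9 lower at an unadjusted p under 0.05. The count of 13 was 10 without the array that stood apart, and it fell to 4 without the ZT0 arrays and to 6 without the ZT4 arrays. Acot3 was among the calls lost without the array that stood apart, and which other members lost theirs is not given here.

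**Figure D3:**
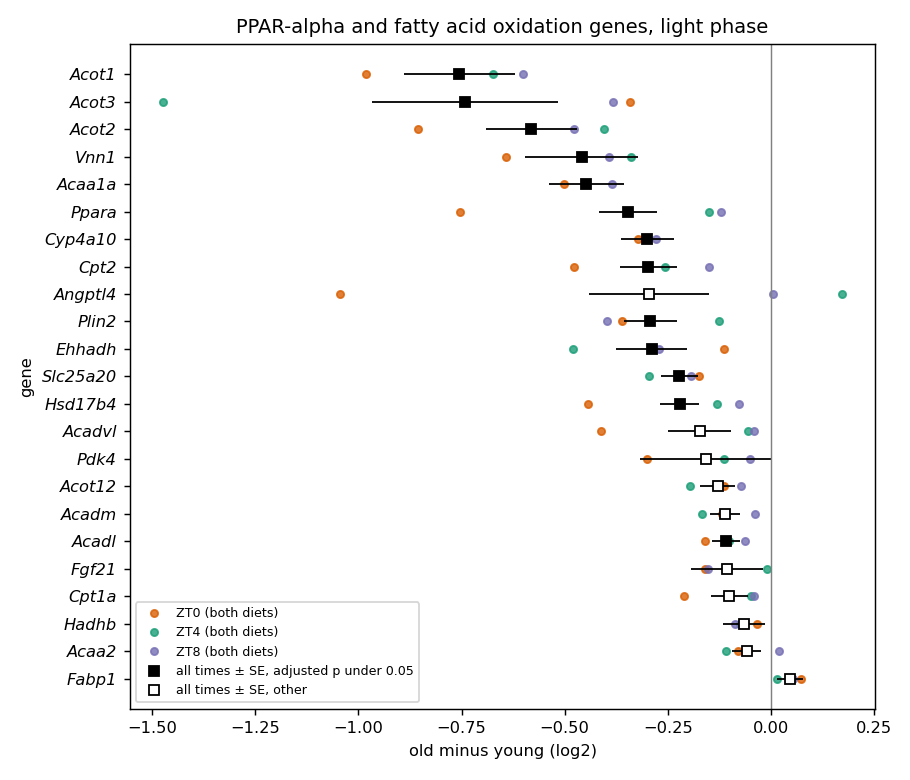
Old minus young difference in log2 signal with its SE for the 23 genes of PPAR-alpha and fatty acid oxidation, with filled symbols where the adjusted p was under 0.05 and coloured dots for the difference at each ZT. All but 1 of the genes lay below 0, and 13 passed.

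Other genes that fell included some of the firmest differences. Vwa8 encodes a mitochondrial ATPase. Its lowest, median and highest signals were 8.42, 8.90 and 9.16 in young and 7.61, 8.25 and 8.74 in old arrays on the normal diet, and 8.28, 8.71 and 9.16 against 7.67, 8.13 and 8.68 on the restricted diet. All 11 old arrays of each diet lay below the young median of Vwa8, though the ranges overlapped. It was 1.51-fold lower in old liver (-0.59 ± 0.073, limma adjusted p = 1.37e-06), by 0.72, 0.46 and 0.59 on the log2 scale at ZT0, ZT4 and ZT8, and differed by -0.31 in the dark (adjusted p = 0.0999). Ociad2 ran from 7.62 to 8.71 in young and from 6.68 to 8.15 in old arrays on the normal diet, and from 6.44 to 8.37 against 5.73 to 7.20 on the restricted diet. It was 1.71-fold lower (-0.78 ± 0.12, adjusted p = 2.6e-05) and differed by a like amount in the dark phase (-0.76, adjusted p = 0.00162). Hsdl2 and Decr1, enzymes of lipid and unsaturated fatty acid breakdown that were picked after their values were seen, differed by -0.47 ± 0.07 (adjusted p = 2.6e-05) and -0.31 ± 0.055 (adjusted p = 0.000345).

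The cadherin Cdh1 of epithelial junctions ranged from 3.96 to 6.68 (median 5.09) in young and from 3.92 to 4.99 (median 4.24) in old arrays on the normal diet, and from 4.02 to 6.61 (median 4.38) against 3.66 to 6.03 (median 3.97) on the restricted diet. It was 1.74-fold lower (-0.80 ± 0.17, limma adjusted p = 0.00286). The highest young value exceeded the highest old value on both diets. The old median on the restricted diet, 3.97, lay below 4.131, the log2 mean under which genes were left out as low. Hsd17b6, an androgen-metabolising enzyme of the list of male-biased liver genes, was 1.52-fold lower (-0.61 ± 0.10, adjusted p = 0.00027), and its dark difference was -0.00 (adjusted p = 0.997); the test between phases did not pass (adjusted p = 0.165). Hsd17b6 was the 1 gene called among 12 male-biased genes. Acot3, lost without the array that stood apart, was the 1 among 10 female-biased genes. Over all genes 3.69% fell. Hc, the gene of complement C5, fell by 0.51 ± 0.11 (adjusted p = 0.00206), the imprinted sarcoglycan Sgce by 0.59 ± 0.11 (adjusted p = 0.000563), the water channel Aqp4 by 0.59 ± 0.15 (adjusted p = 0.012) and the RNA-binding protein gene Cpeb2 by 0.57 ± 0.13 (adjusted p = 0.0037). Slc25a30, Sult2a8, Phlda1 and Rad51b completed the 15 largest decreases, at -0.75, -0.58, -0.57 and -0.50. The calls of Slc25a30, Sult2a8 and Rad51b were lost without the array that stood apart, and in 18, 6 and 21 of the 51 fits that each left out 1 array.

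Some detoxification and bile acid genes fell, where 3.69% of all genes did. Cyp3a11, the main drug-oxidising cytochrome of mouse liver, differed by -0.35 ± 0.053 (limma adjusted p = 2.93e-05). Its difference was -0.17 on the normal and -0.52 on the restricted diet, and the test between diets gave an unadjusted p of 0.000446 and an adjusted p of 0.57. Of 18 xenobiotic oxidation genes 2 fell, Cyp3a11 and Fmo1, and the median was -0.0901. The call of Fmo1 was lost without any of 3 single arrays, the one that stood apart, old normal diet ZT4 replicate 3 and old restricted diet ZT0 replicate 3 (adjusted p up to 0.0676). Of 22 conjugation genes 7 fell and 1 rose (median -0.0682), among them the sulfotransferase Sult5a1 (-0.48, adjusted p = 0.0035), the glutathione transferase Gstt2 (-0.35, adjusted p = 0.0151) and the glucuronosyltransferase Ugt2b5 (-0.14, adjusted p = 0.00103). The count of 7 was 5 without the array that stood apart and 4 without old restricted diet ZT0 replicate 3. Of 18 bile acid genes 3 fell, including the canalicular phospholipid exporter Abcb4 (-0.26 ± 0.057, adjusted p = 0.0034) and the sterol exporter Abcg5 (-0.19, adjusted p = 0.018), and 2 of these without the array that stood apart. The oestrogen sulfotransferase Sult1e1, no member of those lists, went the other way. Its lowest, median and highest signals were 3.40, 3.86 and 5.79 in young and 3.87, 5.27 and 6.68 in old arrays on the normal diet, and 2.91, 3.68 and 4.63 against 3.12, 4.36 and 6.79 on the restricted diet. Sult1e1 was 2.10-fold higher in old liver (1.07 ± 0.22, adjusted p = 0.00197). Its young medians lay below 4.131, the log2 mean under which genes were left out as low, so the size of the fold is uncertain.

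Of 78 oxidative phosphorylation genes tested, 9 fell and 0 rose, where 3.69% of all genes fell. The median was -0.0723, with Cycs (cytochrome c) at -0.14 (adjusted p = 0.0172) and the complex I subunit Ndufa1 at -0.11 ± 0.021 (adjusted p = 0.000928). The count was 3 without the array that stood apart, 5 without old restricted diet ZT0 replicate 3, 0 after quantile normalization and 16 after centring on array medians. In lipogenesis 1 of 20 genes fell, the malic enzyme Me1 (-0.45 ± 0.12, adjusted p = 0.0162). None of the 15 cholesterol synthesis, 10 heat shock, 17 endoplasmic reticulum stress or 19 acute phase genes was called by limma, with medians of 0.128, -0.109, -0.105 and 0.0517. At an unadjusted p under 0.05, 2 cholesterol synthesis genes were higher, 1 heat shock gene was higher and 5 lower, 4 endoplasmic reticulum stress genes were lower and 4 acute phase genes higher. Over all genes 3.03% rose. Of 17 amino acid and urea cycle genes 1 rose, the argininosuccinate synthase Ass1 (0.59 ± 0.16, adjusted p = 0.0143). Among 12 p53 and senescence genes 1 rose, Cdkn1b (0.14, adjusted p = 0.0191), and Cdkn1a, the p21 gene, differed by 0.08 (adjusted p = 0.851). Among 13 cell cycle genes Pcna rose (0.18 ± 0.036, adjusted p = 0.00133) and Spc25 fell (-0.45, adjusted p = 0.00569).

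Some genes of immune cells rose, where 3.03% of all genes did. In whole liver RNA, more cells of a type and more RNA per cell cannot be told apart. Jchain, which joins antibodies secreted by plasma cells, had lowest, median and highest signals of 4.46, 5.26 and 6.72 in young and 6.00, 6.86 and 8.32 in old arrays on the normal diet. On the restricted diet they were 3.69, 4.87 and 6.55 in young and 4.45, 5.93 and 6.91 in old arrays, so that the ages overlapped more on that diet. Jchain was 2.35-fold higher (1.23 ± 0.19, limma adjusted p = 6.07e-05), by 1.57 on the normal and 0.93 on the restricted diet, and differed by 0.56 in the dark phase without passing (adjusted p = 0.199). Of the 6 B and plasma cell genes tested 3 rose, including Iglv1, an antibody light chain segment (0.54 ± 0.14, adjusted p = 0.0151), and 2 of them without the array that stood apart. Of the 11 T and NK cell genes 5 rose, with a median of 0.0627, and 4 without that array. The T cell receptor component Cd3e ranged from 3.58 to 4.65 in young and from 4.26 to 5.95 in old arrays on the normal diet (0.46 ± 0.084 over both diets, adjusted p = 0.000545). The chemokine Ccl5 rose by 0.41 ± 0.094 (adjusted p = 0.00527) and the cytotoxic granule gene Nkg7 by 0.35 ± 0.071 (adjusted p = 0.00162).

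Of the 11 monocyte and dendritic cell genes tested 9 rose and 0 fell, where 3.03% of all genes rose, and the median was 0.301. The members Flt3 and Xcr1, which mark dendritic cells, were not called. Ccr2 and Itgam were too low in signal to be tested. Without the array that stood apart 7 were called. The count stayed at 9 after quantile normalization and with arrays centred on their medians. It was 5 with a replicate block, 3 with a block within diet and time and 2 without replicate 3. In arrays labelled female it was 2 and in those labelled male 0. Clec7a, the beta-glucan receptor dectin-1, ranged from 5.12 to 7.01 (median 5.66) in young and from 5.89 to 7.69 (median 7.04) in old arrays on the normal diet, and from 4.23 to 6.76 (median 5.31) against 4.97 to 6.58 (median 5.53) on the restricted diet. It rose by 0.62 ± 0.14 (limma adjusted p = 0.00569), and the old arrays of the restricted diet lay within the range of the young. Gpnmb, a glycoprotein of lipid-laden macrophages, rose by 0.35 ± 0.072 (adjusted p = 0.00186), Plac8 by 0.35 ± 0.08 (adjusted p = 0.00501) and the fractalkine receptor Cx3cr1 by 0.29 ± 0.071 (adjusted p = 0.00801). Ms4a6d and Ms4a6c, membrane proteins of myeloid cells, rose by 0.53 ± 0.15 (adjusted p = 0.0227) and 0.45 ± 0.13 (adjusted p = 0.0216). Outside these lists the anaphylatoxin receptor C5ar1 rose by 0.59 ± 0.14 (adjusted p = 0.00663), the inhibitory receptor Lair1 by 0.56 ± 0.12 (adjusted p = 0.00388) and the protease inhibitor Serpinb1a by 0.73 ± 0.21 (adjusted p = 0.0245). The neutrophil protein gene S100a9 rose by 0.55 ± 0.13 (adjusted p = 0.00875), 1 of 2 called among 4 neutrophil genes; the other, Ltf, was lost without the array that stood apart and in 34 of the 51 fits that each left out 1 array.

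Over all genes tested 3.03% rose and 3.69% fell, and the counts in this paragraph are to be read beside those shares. Of 15 Kupffer cell and macrophage genes 1 was called, Mpeg1 (6.67%, beside 6.72% of all genes called). It was lost without the array that stood apart (difference 0.27, limma adjusted p = 0.0618). At an unadjusted p under 0.05, 8 of the 15 were higher and 1 lower, and the list's median was 0.232. The count called was 3 after quantile normalization and 4 in a fit of cell means or without the ZT8 arrays. Clec4f, Timd4 and Marco, which define Kupffer cells, were not called. Cd163, the haemoglobin scavenger receptor, differed by -0.40 ± 0.19 in the light (adjusted p = 0.197), by -0.84 on the normal and -0.00 on the restricted diet, and fell by 1.17 ± 0.20 in the dark (adjusted p = 0.00162). Stellate cell and fibroblast genes rose in 2 of 12 cases, Loxl1 and Dcn, endothelial genes in 0 of 12 (limma; 3 higher and 1 lower at an unadjusted p under 0.05), and of 5 cholangiocyte genes Krt23 fell. Interferon response genes rose in 1 of 17 cases, Gbp2 (5.88%), with a median of 0.105. Without the array that stood apart the stellate count was 1 and the interferon count 0. The calls of Loxl1 and Gbp2 were lost in 17 and 25 of the 51 fits that each left out 1 array.

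The immune lists were farthest apart at ZT4. For monocyte and dendritic cell genes the mean per array ranged from 5.14 to 5.94 (median 5.61) in the 7 old arrays at ZT4. In the 11 young it ranged from 4.60 to 5.13 (median 5.04), so the ages only just failed to overlap. The share of all genes without overlap there is not given here. At ZT0 the mean per array ranged from 5.05 to 5.93 in old and from 4.84 to 5.62 in young arrays. At ZT8 it ranged from 4.94 to 5.58 and from 4.87 to 5.63. The list's median difference was 0.195 at ZT0, 0.521 at ZT4 and 0.0626 at ZT8, and the ZT4 value was 0.479 without the array that stood apart. MHC class II genes, which present antigen, had medians of 0.00719, 0.519 and -0.0238 at these times, and 0.561 at ZT4 without that array. Over the light phase 2 of 9 were called higher, where 3.03% of all genes rose. The count was 1 without that array and 0 without the ZT4 arrays (limma, 0 then also at an unadjusted p under 0.05). The list's median was 0.415 on the normal and -0.00894 on the restricted diet. The Kupffer cell and macrophage list had a ZT4 median of 0.695, which was 0.49 without it, and its highest mean, 9.07, was that array's. None of the 9 monocyte and dendritic cell genes that rose passed the test of age by time after adjustment (adjusted p from 0.125 to 0.561). Without the ZT4 arrays 0 of the 11 genes were called (limma, 4 higher at an unadjusted p under 0.05), and without the ZT0 arrays 1.

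**Figure D4:**
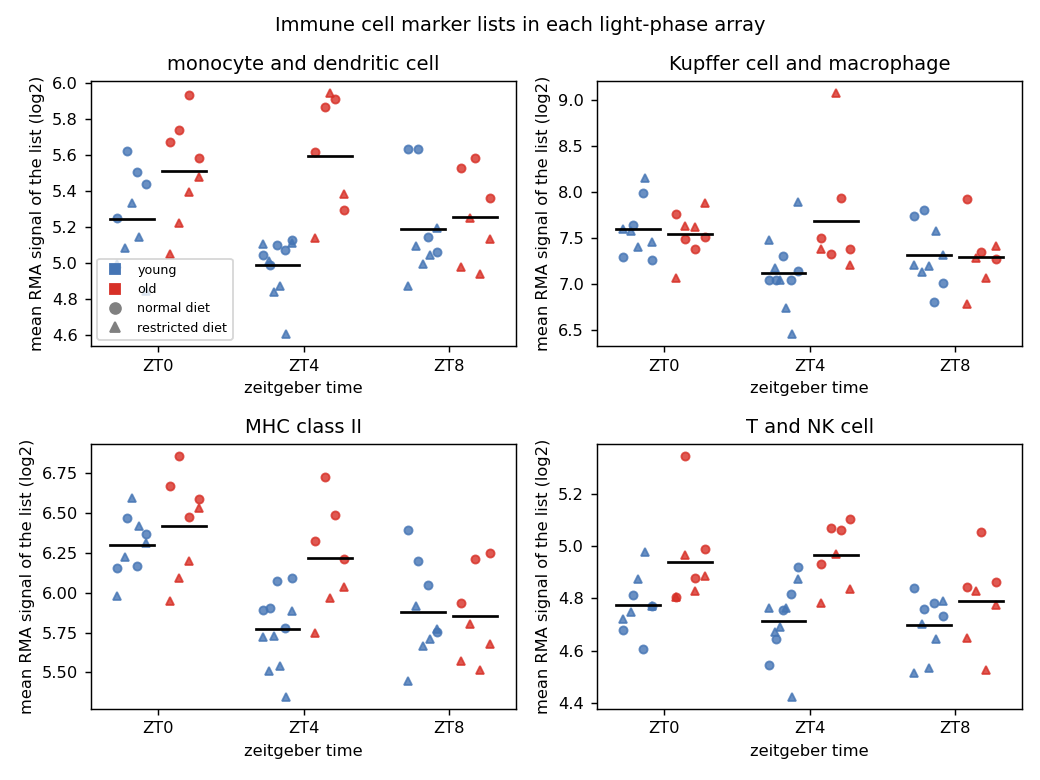
Mean log2 signal per array of 4 immune gene lists at ZT0, ZT4 and ZT8, young in blue and old in red, circles for the normal and triangles for the restricted diet, with the mean as a black line. Old and young arrays only just failed to overlap at ZT4 for the monocyte and dendritic cell list (lowest old 5.14, highest young 5.13). The highest old array of the Kupffer cell and macrophage list was the one that stood apart.

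Whether the age difference changed over the light phase was tested in every gene, and 29 genes passed (0.246%). The largest difference was at ZT4 and higher in old liver in 13 of them, and at ZT4 and lower in 4. Gpx3, a secreted glutathione peroxidase, read 7.39, 8.02, 8.07 and 8.40 in the old and 6.42, 6.65, 6.84, 6.89 and 7.02 in the young arrays at ZT4 on the normal diet, with no overlap. On the restricted diet the 3 old arrays read 6.98, 7.39 and 7.80, above all 6 young, though the share of all genes without overlap there is not given here. Its difference was 0.46 ± 0.13 at ZT0, 1.09 ± 0.13 at ZT4 and 0.09 ± 0.13 at ZT8 (limma adjusted p of age by time 0.0151), and 0.56 ± 0.093 over the light phase. The Wnt co-receptor Lrp5 crossed over, at -0.34 ± 0.073 at ZT0, 0.26 ± 0.073 at ZT4 and 0.01 at ZT8 (adjusted p = 0.0128). Tor4a differed by 0.09, 0.65 and -0.09 (adjusted p = 0.0128), BC062258 by -0.62, -0.00 and 0.01 (adjusted p = 0.0128) and Nol4l by 0.10, 0.25 and -0.32 (adjusted p = 0.0151). Lipoprotein lipase, Lpl, was not among the 29 genes that passed this test. It differed by 0.67, 1.31 and -0.05 at the 3 times (0.66 ± 0.17 over all, adjusted p = 0.0114 for age). Its highest old value at ZT4, 9.36, was that of the array that stood apart. Fos, the immediate early gene, was picked after its values were seen and rose by 0.85 ± 0.19 (adjusted p = 0.00343 for age), with 1.38, 1.18 and -0.09 by time. For Fos the test of age by time did not pass either (limma adjusted p = 0.104). The count of 29 was 15 without the array that stood apart, 7 without young normal diet ZT0 replicate 3 and 55 without old normal diet ZT0 replicate 2. Among the 792 genes called over the light phase, the difference was largest at ZT0 in 340, at ZT4 in 384 and at ZT8 in 68, beside 4745, 4517 and 2525 of all genes.

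**Figure D5:**
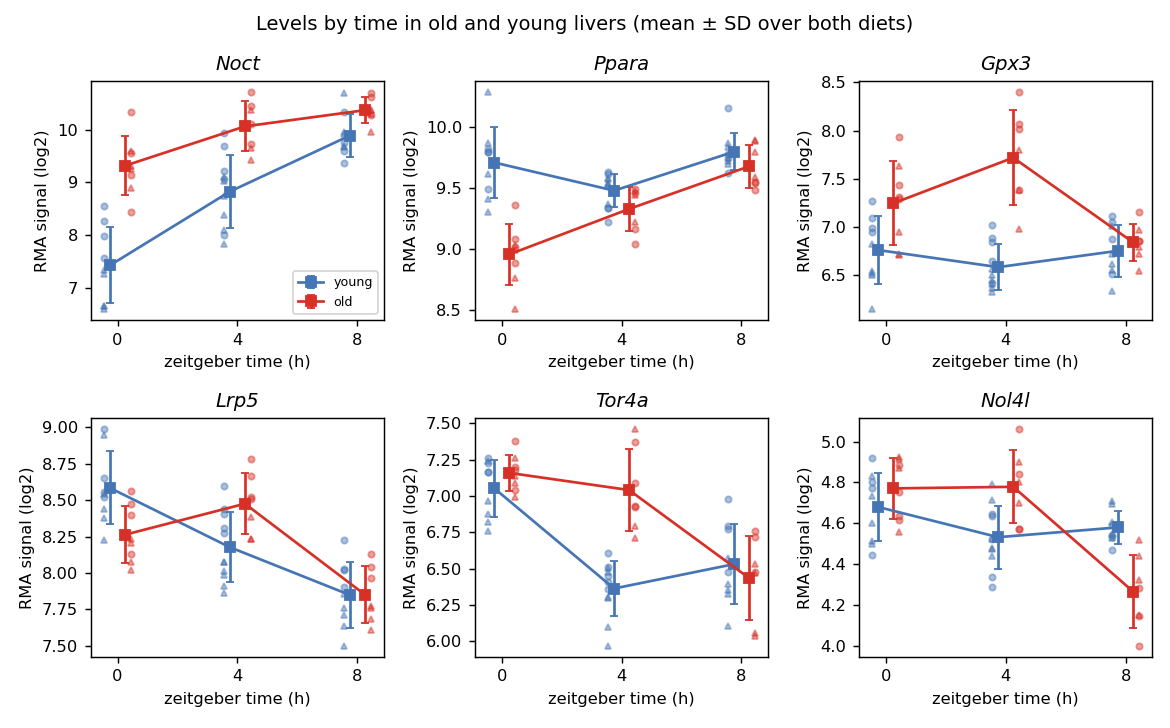
Log2 signal by ZT over both diets for Noct, Ppara, Gpx3, Lrp5, Tor4a and Nol4l, with single arrays as points and mean ± SD as lines, young in blue and old in red. The means of the ages were farthest apart at ZT0 for Noct and Ppara, at ZT4 for Gpx3 and Tor4a and at ZT8 for Nol4l.

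The age difference was not found to depend on diet. In the test of age by diet 0 genes passed (limma, smallest adjusted p 0.57), 625 had an unadjusted p under 0.05, and 0 passed under every alternative setting run. All 792 genes had the same sign on both diets, but they were chosen by their difference over both diets together, which favours this. On the normal diet alone 79 genes were called (0.67%) and on the restricted diet alone 135 (1.15%), of which 11 were shared, 13.9% of the former and 8.15% of the latter. By comparison, 5026 genes differed between diets (42.6%) in the same arrays.

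The 52 dark-phase arrays, which took no part in the light-phase estimate, gave 186 genes called for age (1.58%), 76 higher and 110 lower. Of these, 35 were also called in the light, 4.42% of the light-phase and 18.8% of the dark-phase genes, and 0 were called in opposite directions. Of the 792 light-phase genes 674 (85.1%) had the same sign in the dark, beside 63% of all genes. Without the dark-phase array labelled young and 88 weeks, chosen for omission after the data were seen, 165 genes were called for age in the dark, 66 higher and 99 lower, and 30 were shared with the light. No gene passed the test of the light against the dark difference (limma, smallest adjusted p 0.0518, for Noct, and 0.0578 without that array), though 1128 had an unadjusted p under 0.05 and up to 17 passed under the alternative settings. The light-phase differences were therefore not shown to be particular to that phase.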

How the data were processed

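RNA from mouse liver was measured on Affymetrix HT MG-430 PM arrays. The deposited values are log2 signals; per the submitters' processing notes RMA made them (version: not given in the sources used here). They ranged from -1.28 to 14.2 and were not normalized again. Of 21261 probe sets, 15869 were annotated with a single gene symbol, 225 with several and 5167 with none. Symbols were updated through the RefSeq table of GRCm38.p6, and 153 probe sets with an unmatched gene ID kept their own. Each gene took the probe set with the highest mean over the arrays of both phases, which gave 15716 genes. The 25% with the lowest means were left out (3929 genes, log2 mean below 4.131), leaving 11787.

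Linear models (lmFit, then eBayes with a trend; limma 3.58.1, R 4.3.3) were fitted to the 51 light-phase arrays, with age, diet and ZT as terms, and p-values were adjusted by Benjamini-Hochberg over all genes tested (threshold 0.05). Age by diet and age by ZT were added as interaction terms. Age by phase was fitted over the arrays of both phases, and the dark arrays alone in a fit of their own. The number of arrays limits the precision. The method was run on simulated data with changed genes and normal noise that was independent between genes. Of changes of 0.15, 0.25, 0.5 and 1 on the log2 scale, 45.2%, 82%, 98% and 100% were called. Over all runs 25 unchanged genes were called. The simulation held no correlation of noise between genes and no array that stood apart, so it does not give the error rate in these data.

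The genes named were up to 15 in each direction with the largest difference among those called that had the same sign in at least 5 of the 6 combinations of diet and ZT. Predicted genes and genes of X and Y were left out. Up to 5 genes with the smallest adjusted p of each interaction were added, with up to 4 called members of each gene list (up to 2 with the highest mean where none was called), all genes of the clock list, and Ppara, Cd163, Igf1, Cdkn1a and Sirt1. Other named genes are members of a list or lie beside a named gene, or are stated to have been picked after their values were seen. The comparison and the lists were chosen with earlier results of these data known. Alternatives tried were other scalings, filters, probe set rules, variance settings, covariates and blocks, and leaving out times, replicates and single arrays.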

Additional observations from a re-analysis of the deposited data

Results flagged for a closer look

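Among the groups of 4 to 10 arrays tested for the named genes and lists, 8 arrays lay far from the others of their group. Chance gives about 1 such array in 20 groups, and 160 groups were tested. For Noct these were an old restricted diet array at ZT8 at 9.95, below the next at 10.30, and a young restricted diet array at ZT8 at 10.70, above the next at 9.96. The Hes7 signal of 1 young restricted diet array at ZT0 was 3.10, below the next at 4.17. The Cdh1 signal of 1 old restricted diet array at ZT0 was 6.03, above the next at 4.22, and the Acot1 signal of 1 old restricted diet array at ZT8 was 7.98, above the next at 7.39. Ppara was low in 1 young normal diet array at ZT0 (9.49, next 9.79) and in 1 young restricted diet array at ZT4 (9.37, next 9.52). The mean of the Kupffer cell and macrophage list was 8.14 in 1 young restricted diet array at ZT0, above the next at 7.60.

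The age difference itself differed between ZT0, ZT4 and ZT8, by limma's interaction test, for Lrp5, Tor4a and BC062258 (adjusted p = 0.0128 each), Nol4l and Gpx3 (0.0151 each) and Ppara (0.0328).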

How the results depend on the processing

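The count of 792 genes was between 538 and 1015 under the other scalings, filters, probe set rules, variance settings and covariates and without single arrays. It was 504 with a replicate block and 480 with a replicate block within diet and time, 145 in arrays labelled female, 24 in those labelled male, 203 without ZT0 and 168 without ZT4. Leaving out each replicate number in turn gave 134 to 824. Same-numbered old and young arrays correlated at a median of 0.0434 (22 pairs, 6 over 0.1) and differently numbered ones at -0.00173 (84 pairs, 23 over 0.1). These values showed no clear pairing by number, but with so few arrays per group they cannot exclude one. With the replicate block 487 of the 792 genes stayed called. The higher share was 45.1%, 29.6% with centred arrays, 35.8% with 50% of genes left out as low, 26.2% without ZT4 and 54.2% without ZT8. The 29 genes of age by time became 12 with quantile normalization, 45 with cell means, 78 with the dark arrays in the fit, 13 and 5 with the 2 blocks, 19 in females, 0 in males, 19 without ZT0, 0 without ZT4, 0 without ZT8, 15 without the array that stood apart, 16 also without the 23-week array (added after seeing the data), and 0 to 30 without a replicate number. The 0 genes of age by phase became 4 with quantile normalization, 2 with centred arrays, 5 with 50% of genes left out as low, 17 with cell means, 5 with the block within diet and time, 9 without ZT8, 6 without the array that stood apart, 7 without both arrays and 0 to 6 without a replicate number. Single arrays gave 538 (without old restricted diet ZT4 replicate 2) to 896 genes for age, 7 to 55 for age by time and 0 to 13 for age by phase. Age by diet stayed at 0 throughout. Of the 81 named genes that were called, 54 stayed so without any 1 array and 3 (Noct, Vwa8 and Cyp3a11) under every alternative run. The BC062258 difference reversed without ZT0 (0.000492, adjusted p = 0.997). The causes were not tested.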
